A study of Mus musculus with 9 samples.

Results

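The circadian clock genes described here are 10 genes of the molecular clock, measured by RNA sequencing in mouse pancreatic islets: Clock, Per1, Per2, Per3, Cry1, Cry2, Nr1d1, Nr1d2, Dbp and Tef. They were taken by gene symbol from the 46316 gene symbols of the count table, and for each gene the transcript of highest total count was read. All 10 were found, and all 10 passed the filter on low counts. The study holds 3 groups of 3 islet libraries. The first group came from db/+ mice with no treatment, the second from db/db mice with no treatment, and the third from db/db mice that had both imeglimin and metformin. Db/db mice lack a working leptin receptor and become obese and diabetic, and db/+ mice, which have a single copy of the mutation, are the usual control. Imeglimin and metformin are both oral glucose-lowering drugs, and no group had one drug alone. The sources used here do not give drug doses, length of treatment, strain, age, number of mice or hour of collection. Nothing in the labels ties the libraries to separate animals; the p-values therefore measure how far these libraries spread, and that spread may be technical.

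The clock is a feedback loop of transcription that runs in nearly every cell of the body with a period of about a day. CLOCK pairs with BMAL1 (gene Arntl), binds E-boxes and switches on the Per, Cry, Nr1d, Dbp and Tef genes; the PER and CRY proteins then block that pair, and the REV-ERB proteins (Nr1d1, Nr1d2) repress Arntl, which the ROR proteins activate. DBP and TEF carry the rhythm to further genes through D-boxes. In mice, loss of Clock or Arntl in islets impairs insulin secretion, and since the transcripts rise and fall over the day, a level at one unstated hour is a single view of a cycle.

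RefSeq promoter windows (build GRCm38.p6, not the GRCm39 of the count table) were at hand for 9 of the 10 genes, all but Per2, with 13 annotated starts between them. The 250 bases before each start were searched on both strands for the E-box CACGTG, the E-prime box CACGTT, the D-boxes TTATGTAA and TTACGTAA, the ROR element core TAGGTCA, and the cAMP response elements TGACGTCA and TGACGCAA. No 2 of these motifs overlapped in a match. Matches were found in 6 of the 9 genes. The following 4 promoters are shown because they hold the letters through which clock proteins bind, in 3 genes that fell in db/db islets and in Cry1; capitals mark the matches and each sequence ends at the base before the start.
Per1 (chr11:69098699-69098948, plus strand): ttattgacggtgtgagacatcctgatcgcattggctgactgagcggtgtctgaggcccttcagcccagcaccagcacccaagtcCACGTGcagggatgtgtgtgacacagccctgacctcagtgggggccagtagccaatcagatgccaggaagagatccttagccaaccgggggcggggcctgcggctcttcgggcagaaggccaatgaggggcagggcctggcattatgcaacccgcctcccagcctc
Per3 (chr4:151044666-151044915, minus strand): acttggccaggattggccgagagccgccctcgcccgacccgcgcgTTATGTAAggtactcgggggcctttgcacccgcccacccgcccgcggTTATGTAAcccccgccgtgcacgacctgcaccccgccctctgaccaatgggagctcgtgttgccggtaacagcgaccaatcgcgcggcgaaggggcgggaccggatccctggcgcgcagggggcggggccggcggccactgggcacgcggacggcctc
Cry1 (chr10:85185055-85185304, minus strand): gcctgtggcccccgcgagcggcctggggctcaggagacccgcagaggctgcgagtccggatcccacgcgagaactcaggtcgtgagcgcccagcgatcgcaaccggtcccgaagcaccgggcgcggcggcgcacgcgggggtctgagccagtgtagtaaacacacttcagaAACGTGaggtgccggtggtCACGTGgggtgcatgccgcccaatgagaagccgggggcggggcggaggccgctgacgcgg
Tef (chr15:81802423-81802672, plus strand): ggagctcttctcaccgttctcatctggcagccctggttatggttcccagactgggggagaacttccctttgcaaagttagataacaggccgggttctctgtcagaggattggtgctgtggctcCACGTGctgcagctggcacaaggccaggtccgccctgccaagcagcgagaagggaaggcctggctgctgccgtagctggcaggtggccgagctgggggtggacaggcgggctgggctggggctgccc
Per1 and Tef each hold an E-box, which begins 166 bases before the start shown in Per1 and 127 in Tef. Each of these genes has a second annotated start. The window of the second Per1 start held no match, and that of Tef held an E-box at 138 bases. Cry1 holds an E-box at 60 bases with an E-prime box at 79 bases, the latter read on the other strand (AACGTG). Per3 holds a pair of D-boxes at 205 and 158 bases, the element that DBP and TEF bind. Among 32851 windows of all genes, 6.02% held the E-box, 3.85% the E-prime box and 0.819% TTATGTAA. Cry2 and Nr1d1 each held an E-prime box, at 166 and 28 bases, and no match was found in the windows of Clock, Nr1d2 and Dbp. A match describes letters in this window and not a bound site.

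**Figure D1:**
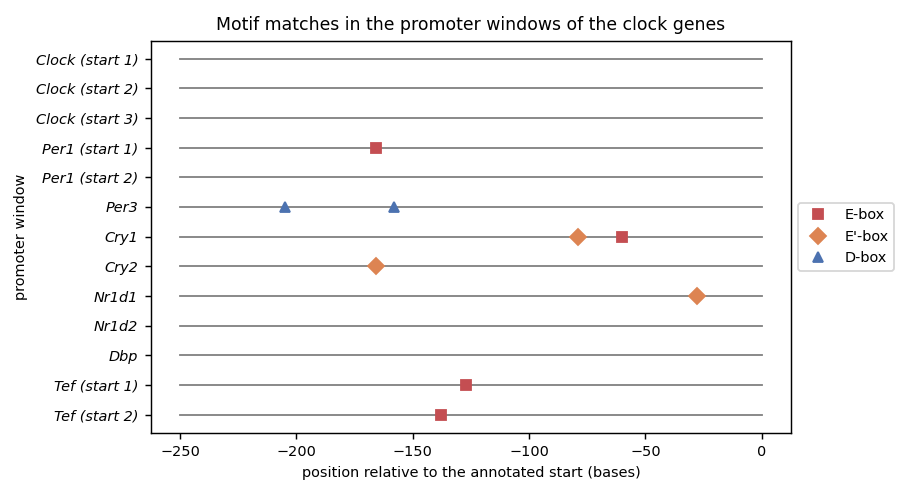
Motif matches (symbols) along the 250 bases before each annotated start of the 9 clock genes with a window; the x axis is the distance from the start in bases. E-boxes stand in Per1, Cry1 and Tef, and Per3 holds 2 D-boxes.

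Libraries held 10292664 to 15281806 counts over the gene table. Islet identity was checked by marker sums: the 10 beta cell markers summed to 248165 to 448832 CPM (a library's counts scaled to a common total) in db/+ libraries, 153343 to 235334 in untreated db/db and 209961 to 234324 in treated db/db. Most of each sum came from Ins1 and Ins2, and single markers moved apart. Iapp had group means of 13834, 35336 and 40692 CPM, and Mafa 535, 20.9 and 23.3. Against db/+, 7 of the 10 were called lower and 1 higher in each db/db group, in the edgeR test used below. Markers of several other cell types differed between the groups. The 12 lymphocyte markers summed in untreated db/db to 33.3 to 337 CPM against 9.26 to 14.03 in db/+ (4 of the 12 at 0) and 2.18 to 6.46 in treated islets (2 at 0). Most of the db/+ sums came from Cd79a alone, at 12.7, 7.63 and 8.72 CPM. In treated islets against db/+, 8 of the 12 had a positive log2 fold change, and in the edgeR test used below 0 were called higher and 1 lower. The 12 acinar markers summed in untreated db/db to 212 to 1829 CPM against 6.21 to 103 in db/+ (1 at 0) and 93.5 to 318 in treated islets (1 at 0). Stellate cell markers (7) summed to 29.9 to 51.9, 101 to 324 and 74.7 to 202 CPM in the 3 groups, ductal markers (6) to 439 to 548, 798 to 1512 and 680 to 963 CPM, and endothelial markers (7) to 515 to 581, 323 to 429 and 307 to 323 CPM. The higher ductal sums came mainly from Spp1, with group means of 92.7, 634 and 415 CPM, where Krt7 had 343, 323 and 374. Against db/+, 1 of the 6 ductal markers was called higher and 0 lower in each db/db group, in the edgeR test used below. Delta cell markers (4) summed to 4522 to 6897, 2722 to 3835 and 1815 to 3010 CPM, most of it from Sst. Of these 4, 2 were called lower in untreated and 3 in treated db/db against db/+, and 0 higher. The highest lymphocyte and acinar sums were both in untreated db/db replicate 1, whose beta cell sum was the lowest of the 9 libraries. In bulk tissue, fewer cells of a type and less RNA per cell cannot be told apart, and the part of these cells in the results below was not tested.

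Coverage along transcripts also differed with genotype. In 258 genes with a curated transcript that lacks the 3′ end of the gene's main one, the shorter transcript held a median 24.1% to 26.4% of the main one's counts in db/+ libraries, 47.7% to 49.0% in untreated and 51.0% to 52.8% in treated db/db libraries. In 61 genes whose shorter transcript lacks the 5′ end, the order was opposite, with 89.3% to 92.2%, 75.5% to 76.5% and 70.9% to 74.8%. The db/+ libraries thus held relatively more of their counts at 3′ ends than both db/db groups, and this cannot be told apart from genotype. Treated and untreated db/db libraries also lay apart in both medians, by less, with the treated ones further from db/+. The part of this in the comparison of treated with untreated islets was not tested.

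Per, Dbp and Tef transcripts were lower in untreated db/db islets than in db/+ islets. Per1, Per2, Per3, Dbp and Tef were each reduced to about 0.405 to 0.513 of the db/+ level, Clock fell slightly, Nr1d2 rose, and Cry1, Cry2 and Nr1d1 did not pass the threshold. In edgeR's quasi-likelihood test with Benjamini-Hochberg adjustment over 16761 genes, 6 of the 10 were called lower and 1 higher at an adjusted p under 0.05, against 32% of all genes called lower and 31.3% higher. In 9 of 10 the CPM ranges of these 2 groups were apart, against 67% of all genes. The share called among the clock genes, 70%, was near the 63.2% of all genes; their median log2 fold change was -0.72 against 0.02 over all genes.

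**Figure D2:**
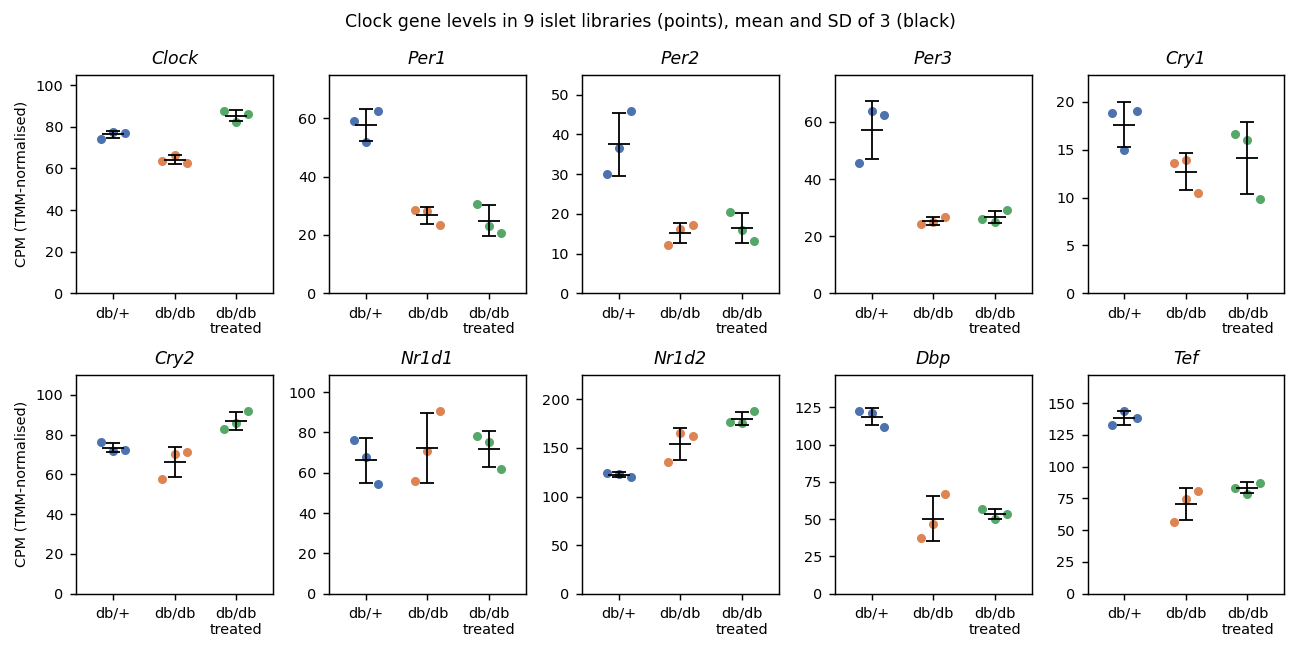
TMM-normalised CPM of the 10 clock genes (y axis, each panel with its own scale from 0) in the 9 libraries (points), with mean and SD of 3 (black). Per1, Per2, Per3, Dbp and Tef are lower in all 6 db/db libraries than in all 3 db/+ libraries, while Nr1d2 is higher.

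Clock encodes the DNA-binding partner of BMAL1. It lay at 74.3, 77.7 and 77.1 CPM in the db/+ libraries, 63.7, 66.5 and 62.5 CPM in untreated db/db and 87.6, 82.5 and 86.1 CPM in treated db/db. No library of one group entered the range of another, with treated islets highest and untreated db/db lowest. Untreated db/db islets differed from db/+ by a log2 fold change of -0.25 ± 0.079 (SE; adjusted p = 0.0145, edgeR). That direction rested on the transcript used: of 15 Clock transcripts tested one by one, 7 were called lower and 8 higher, with log2 fold changes from -0.25 to 0.74. The 7 held nearly the same counts (totals of 8945 to 8946), as did the 8 (6688 to 6692). The calls within each set are therefore not separate results. The sum of Clock transcripts, which adds such repeated counts together, gave 0.22 in edgeR's test (adjusted p = 0.00944). The call was also lost without untreated replicate 3 (adjusted p = 0.0695), with only these 2 groups in the fit (0.0528), with upper-quartile factors (-0.14, adjusted p = 0.111) and with factors from unfiltered counts (-0.14, 0.298), and the last 2 raise the median of all genes by 0.11.

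The 3 Per genes encode the proteins that enter the nucleus with the CRY proteins and block CLOCK and BMAL1. Per1 lay at 58.9, 51.8 and 62.4 CPM in db/+ libraries, at 28.5, 28.3 and 23.3 in untreated db/db libraries and at 30.8, 23.2 and 20.7 in treated ones. Per2 lay at 30.1, 36.5 and 45.9 CPM in db/+ libraries, at 12.3, 16.1 and 17.2 in untreated db/db libraries and at 20.6, 16.0 and 13.1 in treated ones. Per3 lay at 45.6, 63.8 and 62.4 CPM in db/+ libraries, at 24.2, 25.0 and 26.8 in untreated db/db libraries and at 26.1, 24.9 and 29.1 in treated ones. For all 3 genes every db/db library was below every db/+ library, and treated and untreated db/db libraries overlapped. Between untreated db/db and db/+, edgeR gave Per1 a log2 fold change of -1.11 ± 0.14 (SE; adjusted p = 2.53e-05), or 2.16-fold lower. Per2 fell by 1.30 ± 0.20 on the log2 scale (adjusted p = 0.000177), or 2.47-fold lower. Per3 fell by 1.18 ± 0.13 (adjusted p = 6.25e-06). These 3 calls held in all 19 settings run, as did those of Dbp, Tef and Nr1d2.

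Cry1 and Cry2 encode the cryptochromes, the strongest repressors of the loop. Cry1 lay at 18.9, 14.96 and 19.0 CPM in db/+ libraries, at 13.65, 13.97 and 10.5 in untreated db/db libraries and at 16.6, 16.0 and 9.86 in treated ones. Its log2 difference between untreated db/db and db/+ was -0.47 ± 0.20 (95% interval -0.90 to -0.04, adjusted p = 0.0524), with no overlap but just outside the threshold. The call turned when treated replicate 3 was left out of the fit (adjusted p = 0.0171) and when transcripts were tested one by one (4 of 4 lower, largest adjusted p = 0.0434). Those 4 transcripts held nearly the same counts (totals of 1675 to 1721) and are not separate results. The main one had the same log2 fold change, -0.47, as in the fit over genes. Cry2 lay at 76.2, 71.95 and 72.3 CPM in db/+ libraries, at 57.4, 70.5 and 71.0 in untreated db/db libraries and at 82.8, 86.0 and 91.7 in treated ones. The untreated db/db libraries were all below the db/+ ones, 2 of them by under 2 CPM, and the difference of -0.15 ± 0.10 did not pass (interval -0.36 to 0.06, adjusted p = 0.204).

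Nr1d1 and Nr1d2 encode REV-ERB alpha and REV-ERB beta, nuclear receptors that repress Arntl. Nr1d1 lay at 76.4, 67.9 and 54.2 CPM in db/+ libraries, at 55.9, 70.7 and 90.5 in untreated db/db libraries and at 78.3, 75.5 and 61.6 in treated ones. The 3 groups overlapped widely, and the log2 difference of untreated db/db from db/+ was 0.13 ± 0.18 (interval -0.27 to 0.53, adjusted p = 0.551). Nr1d2 lay at 124.1, 123.6 and 119.7 CPM in db/+ libraries, at 135, 166 and 162 in untreated db/db libraries and at 177, 176 and 188 in treated ones. All untreated db/db libraries were above all db/+ libraries and below all treated ones. Nr1d2 was the one clock gene called higher in untreated db/db, by 0.33 ± 0.097 on the log2 scale (adjusted p = 0.00946), where the 1001 genes nearest to it in transcript length had a median of 0.20. Whether Nr1d2 and Nr1d1 differed in their change was not tested.

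Dbp and Tef encode PAR bZIP transcription factors, outputs of the loop that act at D-boxes. Dbp lay at 122, 122 and 112 CPM in db/+ libraries, at 37.4, 46.6 and 67.0 in untreated db/db libraries and at 56.9, 50.1 and 53.3 in treated ones. Tef lay at 133, 144 and 138 CPM in db/+ libraries, at 56.7, 74.7 and 80.9 in untreated db/db libraries and at 83.3, 78.8 and 87.5 in treated ones. Both were lower in all 6 db/db libraries than in any db/+ library, and the 2 db/db groups overlapped. Dbp fell by 1.24 ± 0.17 on the log2 scale between untreated db/db and db/+ (adjusted p = 8.96e-05), a 2.36-fold drop. Tef fell by 0.96 ± 0.12 (adjusted p = 1.79e-05). Without untreated replicate 1, the library with the most lymphocyte and acinar counts, Dbp was at -1.05 and Tef at -0.82, both still called.

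Within the untreated db/db group the libraries did not stand in one order for all 10 genes. Per2, Per3, Cry2, Nr1d1, Dbp and Tef were each lowest in replicate 1 and highest in replicate 3, and Nr1d2 was also lowest in replicate 1. Clock, Cry1 and Per1 were lowest in replicate 3. Arntl (BMAL1), which REV-ERB proteins repress, had 5.55, 3.33 and 2.2 CPM in replicates 1, 2 and 3. The beta cell marker sums of these libraries were 153343, 226139 and 235334 CPM, and the lymphocyte sums 337, 40.3 and 33.3 CPM. With 3 libraries this is a description, and neither the hour of collection nor the cell makeup was tested as its source.

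On a per-length scale, CPM per kb of curated transcript in db/+ islets, Dbp had the highest value of the 10 at 70.7 ± 3.37 (SD, n = 3), followed by Tef at 32.3 ± 1.26. Nr1d2 at 25.8 ± 0.774 and Nr1d1 at 23.9 ± 4.03 did not differ beyond their spread. Cry2 at 18.4 ± 0.589 and Per1 at 12.4 ± 1.15 came next, each apart from its neighbours. Per3 at 9.48 ± 1.74 overlapped Clock at 7.84 ± 0.185, Clock overlapped Per2 at 6.43 ± 1.36, and Per2 overlapped Cry1 at 5.84 ± 0.765. Arntl was far below all of them at 0.481 ± 0.00785. In untreated db/db islets the first place was shared, with Nr1d2 at 32.0 ± 3.26, Dbp at 30.0 ± 9.05 and Nr1d1 at 26.1 ± 6.26 CPM per kb, whose ranges overlapped. Dividing by length takes counts as spread evenly along a transcript, and coverage along transcripts differed with genotype. The part of coverage in this order, and in its change between the groups, was not tested.

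**Figure D3:**
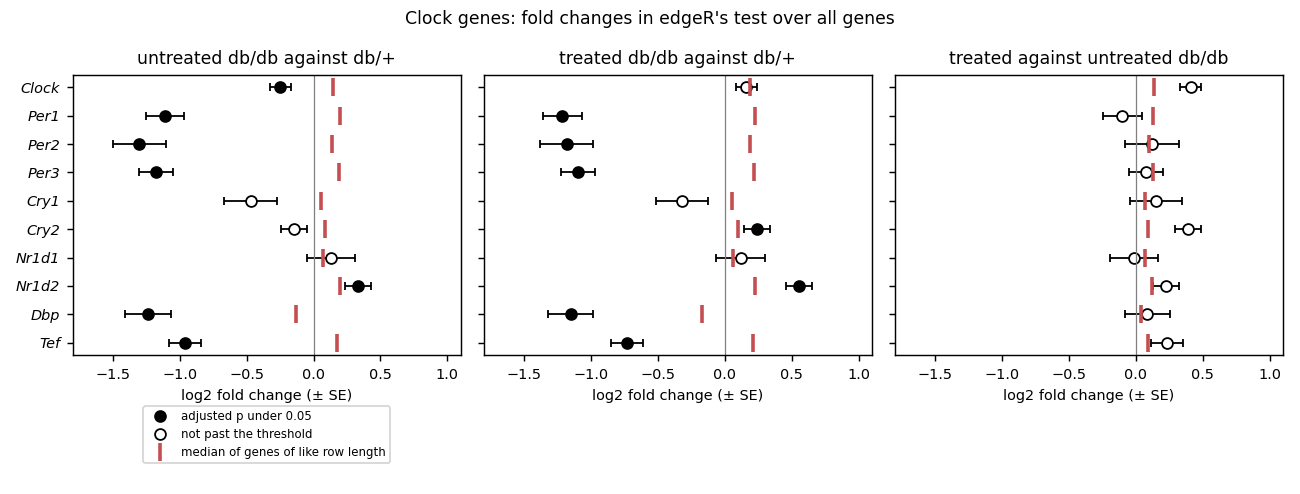
Log2 fold change ± SE (x axis) of the 10 clock genes in the 3 comparisons; filled points are past an adjusted p of 0.05 and red ticks give the median of the 1001 genes nearest in transcript length. In the 2 comparisons with db/+, Per1, Per2, Per3, Dbp and Tef lie between -0.73 and -1.30; between treated and untreated db/db no point is filled.

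The comparison of treated with untreated db/db islets asks what imeglimin and metformin together change. None of the 10 clock genes was called between treated and untreated db/db islets in edgeR's test, against 0.179% of all genes (0.00597% higher, 0.173% lower). At an unadjusted p under 0.05, 3 were higher (Clock, Cry2 and Nr1d2) and 0 lower, where 1656 and 1261 of all 16761 genes were. DESeq2 called 2 of the 10 higher, Clock and Cry2, and 0 lower, and over all genes it called 135 higher and 492 lower. Groups did not overlap in 3 genes, Clock, Cry2 and Nr1d2, against 27.5% of all genes. The median log2 fold change over the 10 genes was 0.14 and over all genes 0.07.

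The CPM values above put Clock, Cry2 and Nr1d2 in all 3 treated libraries above all 3 untreated ones. Clock was 1.33-fold higher (log2 0.41 ± 0.078, interval 0.24 to 0.58, adjusted p = 0.0598); without untreated replicate 2 its adjusted p was 0.037, and over the 19 settings it ran from 0.00033 to 0.252. Cry2 differed by 0.39 ± 0.097 (interval 0.18 to 0.60, adjusted p = 0.0997), falling to 0.30 (adjusted p = 0.248) without untreated replicate 1, which had its lowest value. Nr1d2 differed by 0.22 ± 0.097 (interval 0.01 to 0.43, adjusted p = 0.259). These intervals are for one gene each and are not widened for the number of genes tested. The log2 differences of Per1 (-0.10, interval -0.41 to 0.21), Per2 (0.12, -0.32 to 0.56), Per3 (0.08, -0.20 to 0.35) and Dbp (0.09, -0.29 to 0.46) leave room for a change in either direction. Tef differed by 0.23 (interval -0.02 to 0.49, adjusted p = 0.329), Cry1 by 0.15 (-0.27 to 0.58) and Nr1d1 by -0.01 (-0.41 to 0.38).

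Treated db/db islets were also set against the db/+ libraries, the same ones as in the comparison of untreated islets, and Per1, Per2, Per3, Dbp and Tef were again lower and Nr1d2 higher. In edgeR's test, 5 of the 10 genes were called lower and 2 higher, against 32.5% and 32.8% of all genes, 70% in all against 65.2%, and 8 of 10 did not overlap, against 71%. Per1 was at -1.21 ± 0.14 on the log2 scale (adjusted p = 1.01e-05), Per2 at -1.18 ± 0.20 (0.000299) and Per3 at -1.10 ± 0.13 (8.41e-06). Dbp was at -1.15 ± 0.17 (0.000127) and Tef at -0.73 ± 0.12 (0.00014). Nr1d2 was 1.47-fold higher (0.56 ± 0.097, adjusted p = 0.000256). Cry2 was called 1.18-fold higher (0.24 ± 0.097, adjusted p = 0.0441), a call that ended without db/+ replicate 2 or 3 (adjusted p = 0.189 and 0.116) and without treated replicate 2 or 3 (0.0741 and 0.119). Cry1 at -0.32 (adjusted p = 0.171) and Nr1d1 at 0.12 (0.585) did not pass. Clock at 0.16 (adjusted p = 0.0877) did not pass either, but was called higher with upper-quartile factors (0.20, adjusted p = 0.0286) and on summing its transcripts (0.58, 3.41e-05).

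Shares of single transcripts within Clock and other clock genes also differed with genotype, and the part of the coverage difference in them was not tested. The 7895-base Clock transcript held 42.5% ± 5.01 (SD, n = 3) of the counts of the main 9744-base one in db/+, 84.3% ± 0.458 in untreated and 87.1% ± 1.79 in treated db/db. The 1851-base Cry2 transcript held 7.79% ± 1.52, 35.4% ± 2.15 and 40.9% ± 0.385 of the counts of the 4002-base one. The 2026-base Nr1d2 transcript held 8.73% ± 2.25, 28.6% ± 1.37 and 29.3% ± 1.67 of the 7749-base one, and the 2707-base Per3 transcript 13.7% ± 2.47, 24.9% ± 1.76 and 28.1% ± 0.825 of the 8191-base one. In these 4 genes the db/+ libraries lay below every db/db library, whereas the 1812-base Dbp transcript went the other way, with 97.5% ± 1.16, 83.5% ± 2.68 and 83.3% ± 2.47 of the 1678-base one; 3 against 3 libraries cannot go below p = 0.1 in a two-sided exact permutation test, the value reached for Cry2 and Nr1d2. The annotation at hand does not show which part of the gene these transcripts lack.

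**Figure D4:**
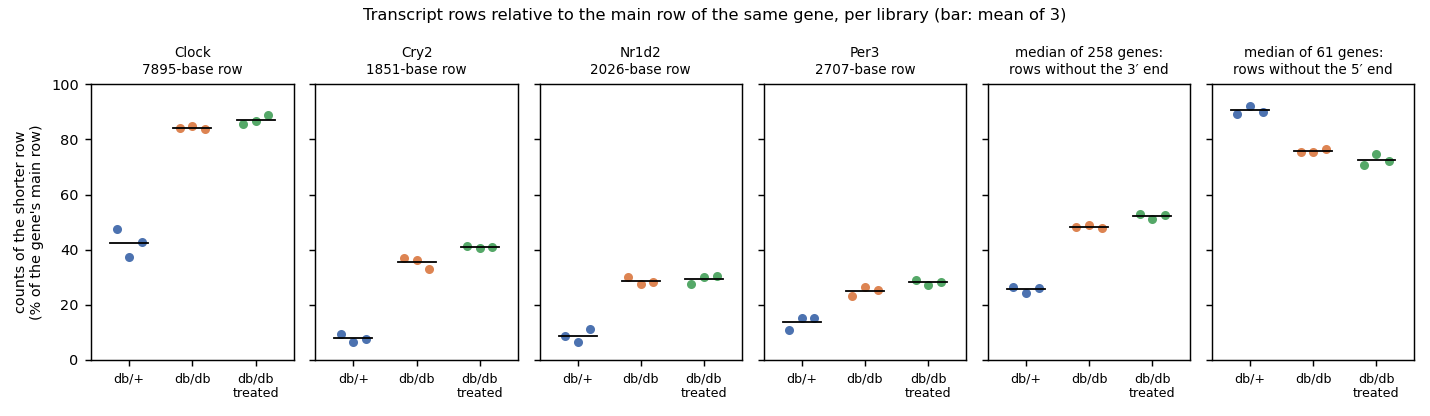
Counts of a shorter transcript as a percentage of the gene's main transcript (y axis) per library (points; bars are means of 3), for Clock, Cry2, Nr1d2 and Per3 and as medians over 258 genes lacking the 3′ end and 61 lacking the 5′ end. The Clock transcript stands at 42.5% in db/+ and 84.3% in untreated db/db, and the median over the 258 genes moves the same way.

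Tested one transcript at a time, where 35.2% of 85882 transcripts were called lower and 32.5% higher in untreated db/db than in db/+, all transcripts of Per1 (7), Per2 (4), Dbp (3) and Tef (11) were called lower. Per1 ran at -1.11 in each, Per2 from -1.34 to -1.30, Dbp from -1.47 to -1.24 and Tef from -1.03 to -0.96 on the log2 scale. Of 22 Per3 transcripts 15 were lower and 0 higher, from -1.39 to -0.15, and all 5 Nr1d2 transcripts were higher, from 0.31 to 2.04. Cry2 had 1 of 3 called higher, from -0.18 to 2.02. The size of the difference for Nr1d2, Cry2 and Per3, and its direction for Clock and Cry2, thus depended on the transcript. Every tested transcript of Per1, Per2, Dbp and Tef was called in the same direction. These transcripts held at least 99.7%, 97.6%, 89.4% and 97.1% of the total counts of their gene's main one. Their counts are thus largely the same, and the number of transcripts called is not separate support. Several transcripts of Clock, Cry1, Nr1d2 and Per3 also held nearly the same counts. In treated db/db against db/+, where 34.9% of transcripts were called higher and 34.1% lower, 8 of 15 Clock transcripts were called higher (0.16 to 1.201 over the 15), 2 of 3 of Cry2 (0.21 to 2.62) and 5 of 5 of Nr1d2 (0.54 to 2.35). Of the 22 Per3 transcripts, 9 were called lower and 0 higher (-1.25 to 0.09), and all transcripts of Per1, Per2, Dbp and Tef were again called lower.

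Some reads could be shared with genes that overlap a clock gene, as the sources used here do not give the strand setting of the counting. Thra, which overlaps Nr1d1, was at -0.38 (adjusted p = 0.0071) and Sphk2, which overlaps Dbp, at -0.49 (adjusted p = 0.00228) on the log2 scale between untreated db/db and db/+. In the same edgeR comparison Gm7467, which overlaps Clock, was at -0.03 (adjusted p = 0.944). D930015M05Rik, which overlaps Cry2, was at -0.52 (adjusted p = 0.398). These last genes had at most 24 and 13 counts in any library. Gm35591 overlaps Per2 and had 0 to 1 counts in db/+, 4 to 10 in untreated and 7 to 21 in treated db/db libraries. Uts2 at Per3 had at most 1 count in any library.

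A further 23 genes of the clock were examined, of which 22 were tested and Rorb, with 1 to 8 counts a library, was not. Between untreated db/db and db/+ islets 7 were called higher and 8 lower, with a median log2 fold change of -0.09, against the 31.3% and 32% of all genes. Of the activators, Arntl rose by 1.26 ± 0.34 on the log2 scale (adjusted p = 0.00617), from 1.48 to 1.63 CPM in db/+ to 2.2 to 5.55 CPM, a low level in every library. Arntl2, its paralog, was at -0.90 (adjusted p = 0.0247), a call that ended without db/+ replicate 2 or 3 or untreated replicate 2 (largest adjusted p = 0.165). Npas2, which can stand in for CLOCK, was at 0.64 (adjusted p = 0.0603). Rora, which encodes an activator of Arntl, was at 0.44 (0.00484).

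**Figure D5:**
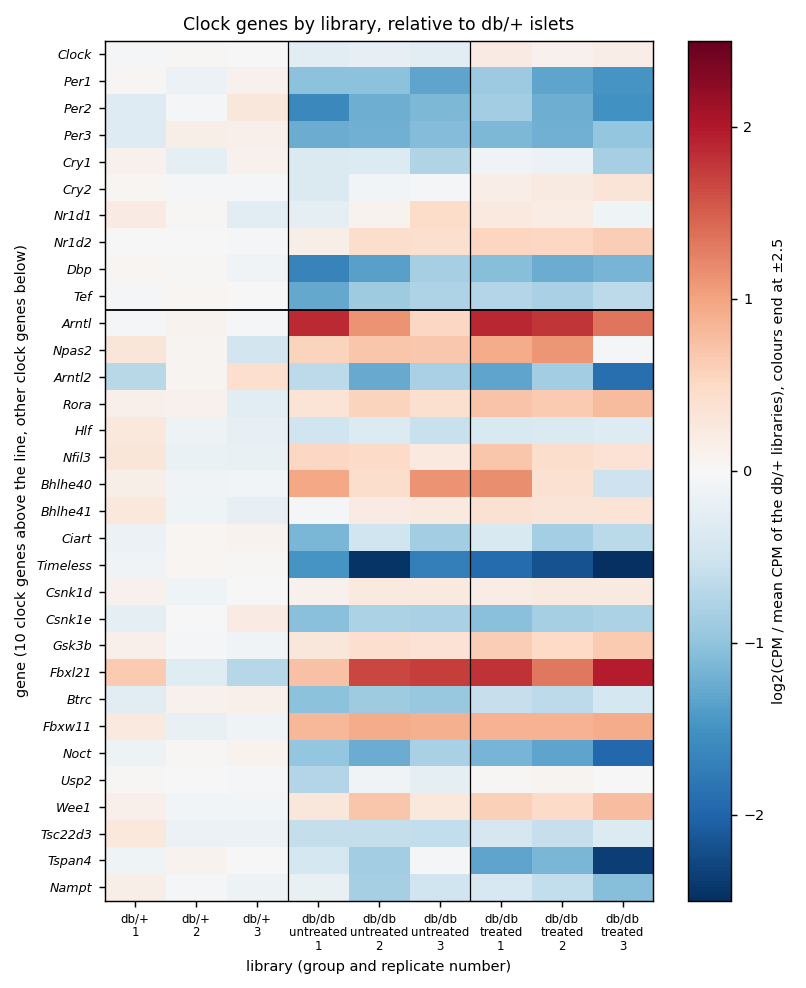
Log2 of CPM over the mean db/+ CPM (colour) for the 10 clock genes (above the line) and 22 other clock genes (below) in the 9 libraries (columns). Arntl and Fbxl21 are higher and Timeless and Noct lower in all db/db libraries; colours end at ±2.5.

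Among the D-box genes Hlf, the third PAR bZIP factor, was at -0.46 (adjusted p = 0.0315) and Nfil3, a repressor at D-boxes, at 0.43 (0.0254); the Hlf call ended without db/+ replicate 1, untreated replicate 1 or 3 (largest adjusted p = 0.252), the Nfil3 call without db/+ replicate 2 or 3, untreated replicate 1 or 2 (largest 0.0893). Of the further repressors, Ciart, which acts on CLOCK and BMAL1, fell by 0.81 (adjusted p = 0.00118) and Timeless, in mammals best known for DNA replication, fell by 1.83 (adjusted p = 0.00343), from 19.5 to 21.4 CPM in db/+ to 3.78 to 7.44 CPM. Bhlhe40 at 0.87 (0.106) and Bhlhe41 at 0.15 (0.311), which encode the DEC repressors of E-boxes, did not pass. Of the kinases and ubiquitin ligases that set the stability of PER and CRY, Gsk3b (0.36, adjusted p = 0.00469), Fbxl21 (1.44, 0.00481) and Fbxw11 (0.88, 1.89e-05) were higher, and Csnk1e (-0.88, 6.01e-05) and Btrc (-0.95, 1.29e-05) lower. The paralogs Fbxw11 and Btrc, which both encode beta-TrCP proteins, were called in opposite directions. The kinase gene Csnk1d was at 0.20 (0.0749). Of the outputs, Wee1, a cell cycle kinase, rose by 0.43 (adjusted p = 0.0186; 0.0948 without untreated replicate 2), Noct, the gene of nocturnin, was 1.99-fold lower (0.00055) and Tsc22d3 fell by 0.60 (0.000823), while Nampt, an enzyme of NAD synthesis, at -0.48 (0.0509), Usp2 at -0.32 (0.148) and Tspan4 at -0.41 (0.228) did not pass.

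Between treated and untreated db/db islets 0 of these 22 genes were called in edgeR's test. DESeq2 called 1 lower, Tspan4, and over all genes it called 135 higher and 492 lower. At an unadjusted p under 0.05 in edgeR's test, 3 were higher and 2 lower, where 1656 and 1261 of all 16761 genes were. Those higher were Rora (0.28), Gsk3b (0.24) and Btrc (0.40), and those lower Noct (-0.45) and Tspan4 (-1.11, adjusted p = 0.122; 0.044 without untreated replicate 2). Against db/+, treated islets had 9 of the 22 called higher and 9 lower, against 32.8% and 32.5% of all genes. Those higher were Arntl, Npas2, Rora, Nfil3, Bhlhe41, Gsk3b, Fbxl21, Fbxw11 and Wee1, and those lower Arntl2, Ciart, Timeless, Csnk1e, Btrc, Noct, Tsc22d3, Tspan4 and Nampt. The calls of Npas2, Nfil3 and Bhlhe41 ended without db/+ replicate 2 or 3 (largest adjusted p = 0.147, 0.077 and 0.137), Npas2 also without treated replicate 1 or 2 (0.0928 and 0.132), Bhlhe41 without treated replicate 1 (0.0556) and Nampt without db/+ replicate 1 (0.081). Arntl was at 1.68 ± 0.34 (adjusted p = 0.000762), Timeless at -2.45 (0.000709), Noct at -1.45 (3.37e-05) and Tspan4 at -1.52 (0.00107).

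A pair of pathways is known to drive Per1 apart from the clock, the glucocorticoid receptor and cAMP signalling, and their responsive genes were counted beside it. The part of either pathway in the clock gene differences was not tested. Of 10 glucocorticoid-responsive genes, 7 were called lower and 1 higher between untreated db/db and db/+, against 32% and 31.3% of all genes, with Mt2 at -1.99 (adjusted p = 2.04e-07) and Mt1 at -1.29 (3.26e-05), the metallothioneins, and Sgk1, a kinase, at -0.80 (0.000131). In 3 of the 10 the log2 fold change was positive. Fkbp5, one of these, stood at 69.0 to 77.1 CPM in untreated db/db and 55.9 to 64.1 CPM in db/+. Tsc22d3 is in this list and among the clock outputs. Of 11 cAMP-responsive genes, 4 were lower and 3 higher, 63.6% called in all and near the 63.2% of all genes, with Npas4, an activity-induced factor, at -4.24 (0.000129), Nr4a1 at -0.74 (0.00236) and Nr4a2 at 1.47 (8.96e-05), the last 2 being nuclear receptors. In treated against untreated islets 0 of the 10 and 0 of the 11 were called; at an unadjusted p under 0.05, 5 of the 11 cAMP-responsive genes were lower and 0 higher, and 1261 and 1656 of all 16761 genes.

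Genes of most similar pattern to each clock gene over the 9 libraries were sought by Pearson r of log2 CPM, as a description. The 10 clock genes and the 23 other clock genes were left out of the search. Matches lay close for the genes that differed by genotype. They were Nrn1l (0.997) and Afg3l1 (0.995) for Per1, Gm13835 (0.995) and Abcc8 (0.992) for Per2, and Arid1a (0.997) and Snrk (0.996) for Per3. For Dbp they were Med31 (0.995) and Il11ra1 (0.992), for Tef Pcbp3 and Reep6 (both 0.991), and for Nr1d2 Ccser1 (0.995) and Gm46748 (0.994). Clock came nearest to Zkscan16 (0.961) and Ints2 (0.953), and Cry2 to Arhgef17 (0.965) and Spen (0.955). Cry1, with Nlrx1 (0.886) and Grhl1 (0.881), and Nr1d1, with Nupr1 (0.881) and 1700056E22Rik (0.879), had no close match outside the clock genes. The 9 points are 3 groups that share their libraries, so an r near 1 arises for any gene that splits the groups alike.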

How the data were processed

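The authors deposited raw counts for each RefSeq transcript, per the file headers, from directional libraries, per the labels' protocols. The submitters' processing notes name cutadapt 1.9.1, HISAT2 2.2.1, featureCounts 2.0.0 and GRCm39; the strand setting and the handling of multiply aligned reads are not stated there. The transcript of highest total stood for each gene. Tests ran in edgeR 4.0.16 under R 4.3.3 (filterByExpr by group, 16761 genes tested, TMM factors, robust quasi-likelihood F-test, 3 group means over 9 libraries, no block), and Benjamini-Hochberg adjusted p under 0.05 was called. limma 3.58.1 (voom) and DESeq2 1.42.0 were alternatives; tables and figures used Python 3.11.15, pandas 2.3.3 and matplotlib 3.10.9. The fit was tested on simulated data. Levels are TMM-normalised CPM, log2 fold changes carry SE, and 95% intervals use the test's own degrees of freedom. Patterns used log2(CPM + 0.5). All clock genes, the other clock genes, the 2 genes of nearest pattern outside both, overlapping genes and up to 3 examples with the smallest p from the accompanying lists were named by rule. Some genes of the clock are not reported here. Members and lists were chosen with earlier results of these data known. Coordinates are RefSeq promoter windows of GRCm38.p6 alone, and 9 of 10 genes matched that table. No replicate pair agreed within sampling noise (chi-square per degree of freedom 9.93 to 47.9).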

Additional observations from a re-analysis of the deposited data

How the results depend on the processing

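Of the 10 clock genes, Per1, Per2, Per3, Dbp, Tef and Nr1d2 kept their direction and calls against db/+ in both db/db groups in all 19 settings run. Signs turned for Clock (0.22) and Cry2 (0.087) between untreated db/db and db/+ on summing transcripts. Nr1d1 turned in treated against untreated islets with voom (0.0088), without untreated replicate 3 (0.18) and without treated replicate 3 (0.093), against db/+ without db/+ replicate 3 (-0.036, treated) and without untreated replicate 3 (-0.054, untreated). In treated against untreated islets Dbp turned without untreated replicate 1 (-0.087), Per1 without treated replicate 3 (0.020), and Per2 without untreated replicate 1 (-0.0095) or treated replicate 1 (-0.061). Usp2 in treated against db/+ turned on summing (-0.033) and without db/+ replicate 2 (-0.021) or 3 (-0.013). Over the fits that leave out 1 library, treated against untreated values ran from -0.087 to 0.35 for Dbp, -0.17 to 0.18 for Nr1d1, -0.28 to 0.020 for Per1 and -0.061 to 0.27 for Per2; Nr1d1 against db/+ ran from -0.036 to 0.25 (treated) and -0.054 to 0.33 (untreated), and Usp2 from -0.021 to 0.061. Apart from Clock, none of the values that turned was past the threshold in the fit reported. The cause was not tested.

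Clock genes called higher in treated against untreated islets numbered 2 with DESeq2, in treated against db/+ 1 with the curated transcript and 3 with upper-quartile factors or on summing, where Clock was added (main 2), and in untreated against db/+ 2 on summing (main 1); other clock genes called lower in treated against untreated numbered 1 with DESeq2. Over all genes, treated against untreated, 1 higher and 29 lower became 0 higher with DESeq2 size factors, upper-quartile factors, voom, summing or 2 groups only, 12 and 215 with no filter, 135 and 492 with DESeq2, 7 lower with voom, 9 lower on summing, 0 lower with 2 groups only and 2 higher with the curated transcript. Leaving out 1 library gave 0 to 67 higher and 6 to 371 lower over all genes. For clock genes it gave 0 to 1 higher in treated against untreated, 1 to 2 higher in treated against db/+ and 5 to 7 lower in untreated against db/+. For the other clock genes it gave 0 to 1 lower in treated against untreated, 6 to 10 higher in treated against db/+ and 5 to 10 higher in untreated against db/+. Clock genes called lower in untreated against db/+ numbered 5 with upper-quartile factors, with no filter and on summing, and with 2 groups only Clock was lost and Cry1 gained (main 6). The curated-transcript and single-transcript fits were chosen after seeing the data. Summing adds transcripts of a gene that can hold the same reads, so a read may be counted more than once.

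Replicate numbers did not pair the libraries: same-numbered libraries of different groups deviated with r from -0.413 to 0.0571, and different-numbered ones from -0.304 to 0.424. With the replicate block, 115 genes were lower in treated against untreated islets and 1 clock gene higher in treated against db/+ (Nr1d2; Cry2 adjusted p = 0.069), and Cry1 was called lower in untreated db/db (adjusted p = 0.0426).

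With 3 libraries a group, unknown hours of collection and coverage that differs between the groups, small changes such as that of Clock are the least secure. Arntl, with few counts in db/+, is limited by depth.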
